A study of Macaca mulatta with 2 samples.

Results

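Prostanoid receptors are the cell-surface receptors for prostaglandins and thromboxane. The 7 genes described here are PTGFR, which encodes the FP receptor for prostaglandin F2-alpha, PTGER1, PTGER2, PTGER3 and PTGER4, which encode the receptors EP1 to EP4 for prostaglandin E2, PTGIR, which encodes the prostacyclin receptor, and TBXA2R, which encodes the thromboxane receptor. They were chosen by name, as receptors of the family that pressure-lowering eye drugs act on, and all 7 were found among the 24037 features of both libraries. The study profiled single cells of the trabecular meshwork, the filter-like tissue through which aqueous humour drains from the eye, from rhesus macaques. It set monkeys with spontaneous primary open-angle glaucoma beside healthy controls, with a single glaucoma library and a single normal library. The labels record disease state under the heading of genotype and name no allele, drug, age, sex or eye pressure, nor the number of animals or eyes behind a library. Tissue of both was prepared alike per the labels, with collagenase digestion at 37 °C for 20 minutes and a 3-prime droplet kit.

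Prostanoid receptors belong to the G protein-coupled receptors. The EP2, EP4 and prostacyclin receptors mainly couple to Gs and raise cyclic AMP, the FP and thromboxane receptors mainly couple to Gq and raise calcium, and EP3 mainly couples to Gi and lowers cyclic AMP. EP1 is known for raising calcium. In the eye, FP receptor agonists such as latanoprost are used to lower pressure, chiefly by promoting uveoscleral outflow through the ciliary muscle, and EP2 agonists have the same use.

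The deposited values were counts of unique molecular identifiers (UMIs), each standing for 1 captured RNA molecule. After filters, 8337 glaucoma cells with 30011671 UMIs and 5385 normal cells with 21696437 UMIs were kept, with medians of 2751 and 2702 UMIs per cell. The libraries shared 17 barcodes before the filters and 11 after them. Of 26 clusters, 21 took the name of a class from marker genes, and 9 classes held at least 50 cells in both libraries and were compared. Trabecular meshwork-like cells numbered 1842 and 705 in the glaucoma and normal libraries, from clusters 3, 9, 12, 16 and 17. MYOC, the secreted glycoprotein myocilin and 1 of the meshwork markers used, was present in them at 24552 and 31298 counts per 1e+06 UMIs (CPM). Stromal fibroblast-like cells held it at 3933 and 3861 CPM and muscle-like cells at 3764 and 1959 CPM. Levels below are CPM of the UMIs summed over a class or cluster, with the glaucoma library first. Intervals in brackets are exact at 95% and reflect counting error alone, since animals cannot be compared. With 1 library per group no test between the groups was possible, no p-value is given, and disease cannot be told apart from any other difference between these libraries. The words called higher and called lower are kept for a CPM ratio of at least 2-fold whose interval excluded no change, given at least 100 UMIs over both libraries.

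The kept cells held 2638 receptor UMIs (glaucoma) and 2811 (normal). At least 1 of them was found in 1867 glaucoma cells (22.4%) and in 1577 normal cells (29.3%). PTGFR gave 1113 and 1242 UMIs, PTGER2 gave 686 and 659, and PTGER4 gave 508 and 690. These genes had enough molecules for ratios within some classes. PTGIR gave 188 and 117 UMIs and TBXA2R gave 89 and 72, enough to place them among classes. PTGER1 gave 27 and 20 UMIs and PTGER3 gave 27 and 11, so their levels rest on few molecules. Of the 9 classes, the highest was the same in both libraries for each gene except PTGER1. It was stromal fibroblast-like cells for PTGFR and PTGER2 and macrophage-like cells for PTGER3 and PTGER4. For PTGIR it was pericyte-like cells and for TBXA2R vascular endothelium-like cells. The lead over the next class was within counting error for PTGER3 and PTGER4 in both libraries and for PTGIR in the normal library.

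**Figure D1:**
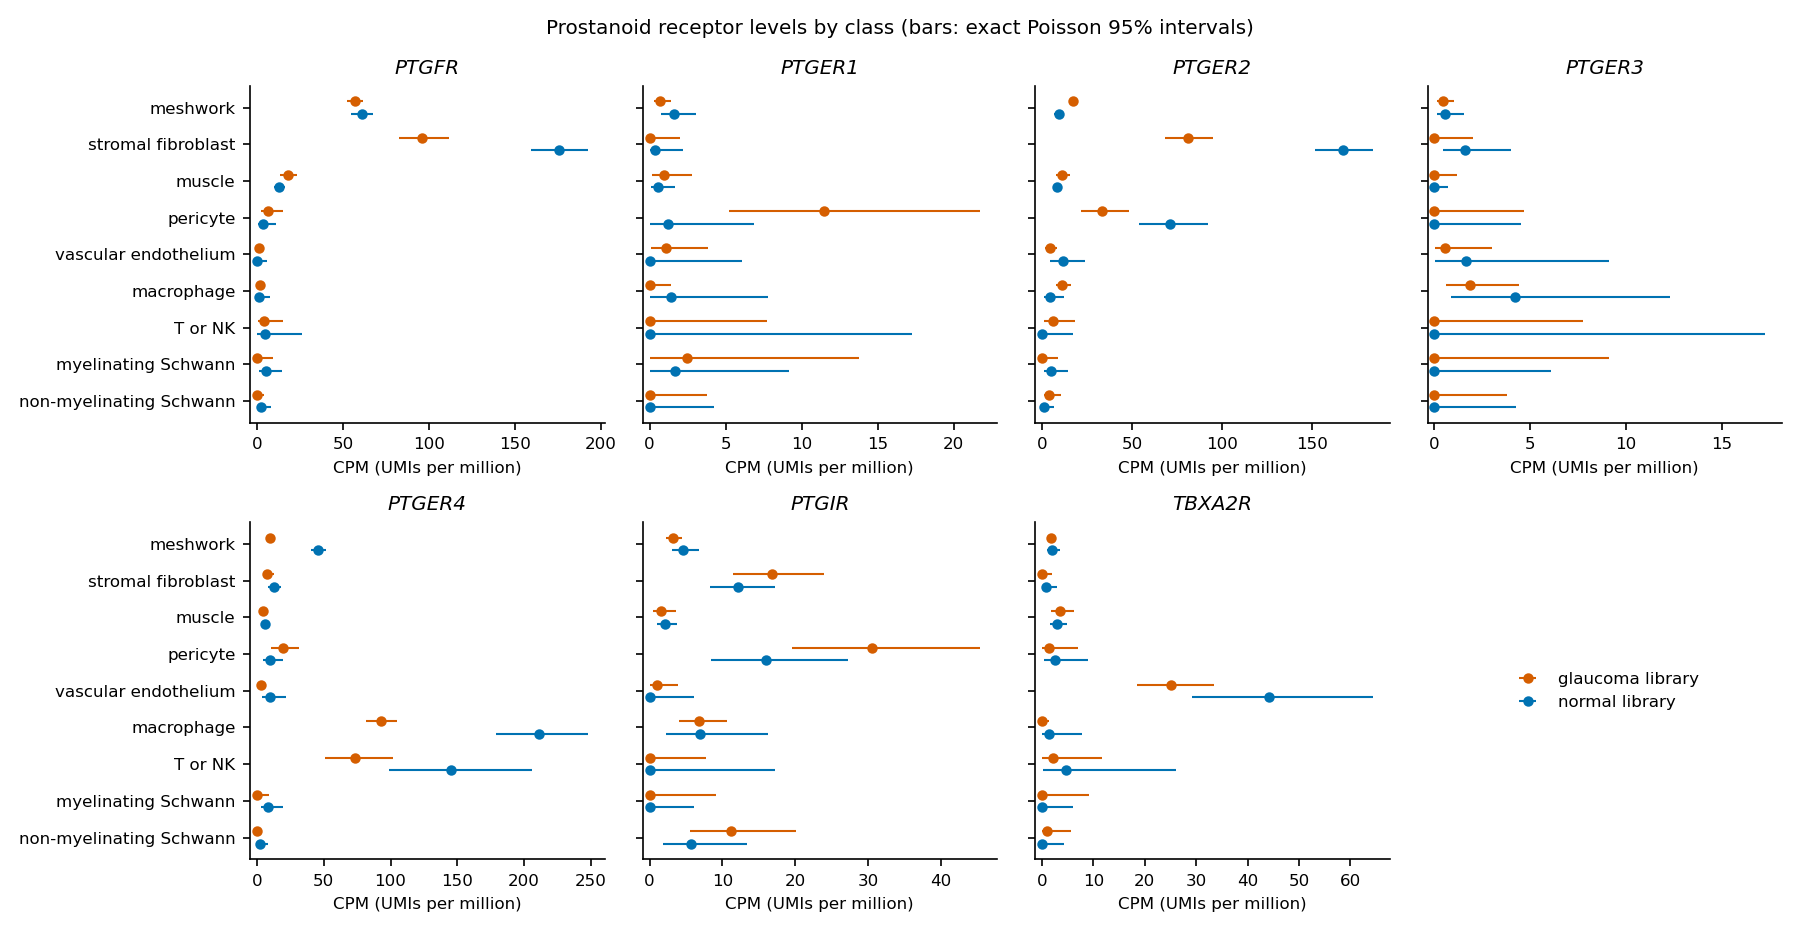
Level of each receptor gene (CPM, linear axis) in the 9 compared classes, orange for the glaucoma library and blue for the normal library, with exact Poisson 95% bars. PTGFR and PTGER2 stood highest in stromal fibroblast-like cells, PTGER4 in macrophage-like cells and TBXA2R in vascular endothelium-like cells in both libraries, and meshwork-like PTGER4 was at 9.72 CPM (glaucoma) against 45.9 CPM (normal).

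PTGFR, the target of the prostaglandin F2-alpha analogues, was a gene of meshwork-like and fibroblast-like cells. Its level in stromal fibroblast-like cells was 96.3 CPM [82.6, 112] in the glaucoma library against 176 CPM [160, 193] in normal. In trabecular meshwork-like cells it was 56.8 CPM [52.6, 61.4] and 60.9 CPM [54.6, 67.7]. Stromal cells exceeded meshwork-like cells, and meshwork-like cells exceeded muscle-like cells, beyond counting error in each library. Muscle-like cells held 18.0 and 12.9 CPM, and the other 6 classes held at most 6.37 CPM in either library. A PTGFR UMI was found in 26.5% of glaucoma and 31.2% of normal meshwork-like cells, at median depths of 5558.5 and 7860 UMIs. In macrophage-like cells, taken here as a background for this gene, the shares were 0.632% and 0.654% at median depths of 4096 and 4317 UMIs.

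The class level of PTGFR in meshwork-like cells did not differ beyond counting error between the libraries. Its log2 ratio of glaucoma over normal was -0.10 [-0.29, 0.10], and it ranged from -0.28 to -0.04 over 11 other ways of processing. Among the 4 larger meshwork-like clusters, cluster 3 held 66.5 and 64.6 CPM, cluster 12 held 54.1 and 58.8 CPM, cluster 16 held 60.0 and 67.9 CPM, and cluster 9 held 44.9 and 69.0 CPM. In none of the 5 meshwork-like clusters did the interval of the ratio leave out 0, and that of cluster 9, at -0.62 [-1.38, 0.25], is wide enough to include the stromal ratio given next.

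In stromal fibroblast-like cells PTGFR was lower in the glaucoma library, with a log2 ratio of -0.87 [-1.13, -0.61], short of the 2-fold mark. The median over all 5673 genes measured in that class was -0.18, and PTGFR was at -0.68 when that shift was taken out. Clusters 15, 10 and 2, whose meshwork and stromal marker counts were too close for a class name, had ratios below 0 as well. Stromal and meshwork markers numbered 8 and 7 in clusters 15 and 10, and 9 and 9 in cluster 2. In cluster 15, led by PI16, EGFL6 and SFRP4, PTGFR was at 89.8 and 225 CPM, a log2 ratio of -1.33, and was called lower, as were 11.9% of genes there. In cluster 10, led by WIF1, APOE and BMP3, it was at 49.0 and 113 CPM, a log2 ratio of -1.20, and was called lower, as were 8.25% of genes. In cluster 2, led by GPHA2, PI16 and KRT19, it was at 59.9 and 68.7 CPM and its interval included no change. Whether these ratios differ from those of the meshwork-like clusters was not tested.

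Ciliary muscle is a tissue in which FP receptors are known to act, and the muscle-like class held PTGFR unevenly. Cluster 4, led by MYH11, the smooth muscle myosin heavy chain, and CHRM3, the muscarinic M3 receptor, held 12.2 and 11.5 CPM. Cluster 8, led by RERGL and ACTG2, held 1.03 and 1.60 CPM. Cluster 21 joined muscle markers to RSPO2 and to CYTL1 and CCK, leading genes of meshwork-like cluster 3 as well. It held 65.0 and 213 CPM, from 36 and 21 UMIs in 74 and 19 cells. The class ratio, a log2 value of 0.48 [-0.06, 1.01], was -0.99 when the clusters had the same weights in both libraries. Cluster 21 made up 10.6% of glaucoma and 1.80% of normal muscle-like cells, and within cluster 4 the levels were nearly equal.

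PTGER2, which encodes the Gs-coupled EP2 receptor, was highest in stromal fibroblast-like cells at 81.1 CPM [68.6, 95.2] and 167 CPM [152, 184]. Pericyte-like cells were next, at 33.1 CPM [21.6, 48.5] and 71.3 CPM [54.1, 92.2]. The step from stromal to pericyte-like cells was larger than counting error in both libraries. Trabecular meshwork-like cells held 17.2 CPM [14.8, 19.7] and 9.28 CPM [6.93, 12.2], and muscle-like cells 11.1 and 8.10 CPM. A PTGER2 UMI was found in 14.4% and 27.1% of stromal cells at median depths of 2028 and 2217 UMIs. Non-myelinating Schwann-like cells, the support cells of unmyelinated nerve, had one in 0.458% and 0.174% of cells at median depths of 965 and 1312 UMIs.

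Almost all stromal PTGER2 came from cluster 0, 1 of 2 stromal clusters, which also held 95.7% of glaucoma and 89.7% of normal stromal cells. PTGER2 was at 84.4 and 192 CPM there. Cluster 18 held no PTGER2 UMI in 33 glaucoma cells and 4 in 99 normal cells, the latter at 11.5 CPM. PTGFR was at 95.9 and 163 CPM in cluster 18, from 7 and 57 UMIs. Cluster 15 was alike, with no PTGER2 UMI among glaucoma cells and 8.20 CPM among normal ones. Within the meshwork-like class, cluster 9, led by MGARP, CYTL1, BMP3 and WIF1, stood apart with 34.5 and 78.2 CPM. Cluster 3 held 9.04 and 16.6 CPM, cluster 16 held 1.54 and 11.3 CPM, and cluster 12 held 3.28 and 2.37 CPM. The unnamed cluster 10, which shared WIF1 and BMP3 with cluster 9 among its leading genes, was at 75.2 and 75.3 CPM. Over the 5 meshwork-like clusters PTGER2 thus ran from no UMI to 78.2 CPM. The low end was 42 glaucoma cells of cluster 17 and the high end 29 normal cells of cluster 9 with 17 UMIs. PTGFR ran from 40.2 to 69.0 CPM, from 8 and 15 UMIs.

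**Figure D2:**
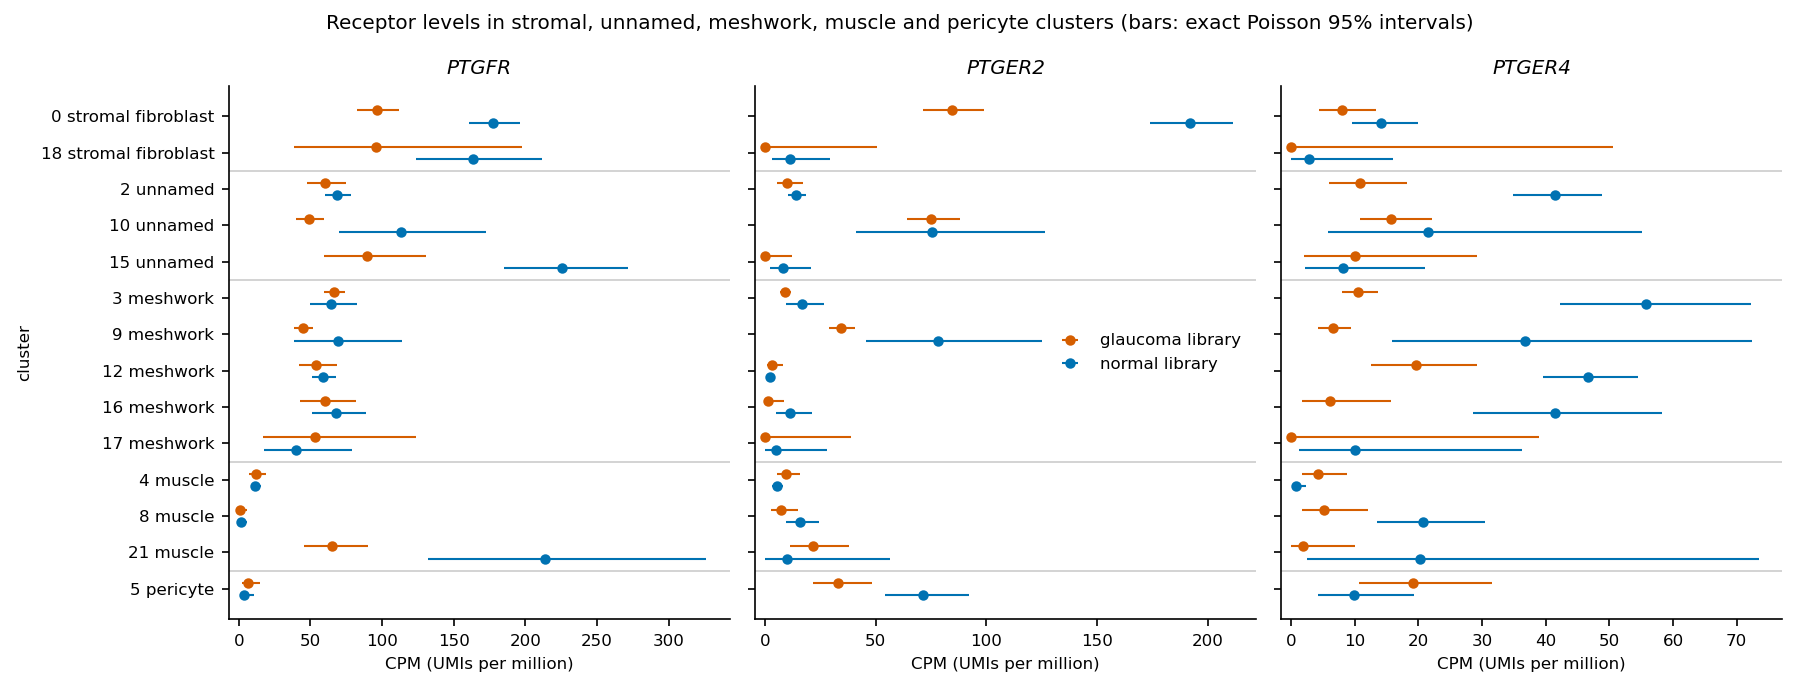
Levels of PTGFR, PTGER2 and PTGER4 (CPM, linear axes) in the clusters of stromal, unnamed, meshwork-like, muscle-like and pericyte-like cells, orange for the glaucoma library and blue for the normal library, with exact Poisson 95% bars. PTGFR was spread over stromal and meshwork clusters, and PTGER2 stood out in clusters 0, 9 and 10 and in pericyte-like cluster 5. PTGER4 was lower in the glaucoma library in meshwork clusters 3, 9, 12 and 16, while cluster 17 gave only 2 UMIs.

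The highest PTGER2 level of any cluster was in a group of 30 cells, cluster 24, all from the glaucoma library. It held 59 PTGER2 UMIs in 24 of its 30 cells, a level of 420 CPM [320, 542], and PTGER2 was among its leading genes with TAC1, CRHBP and NDUFA4L2. These cells took no class name and, being absent from the normal library, could not be compared.

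In stromal fibroblast-like cells PTGER2 was called lower in the glaucoma library, with a log2 ratio of -1.05 [-1.32, -0.77]. Of all genes measured in that class, 7.83% were called lower and 2.15% higher. The ratio ended between the 2-fold marks, at -0.86, when the shift of all genes was taken out, at -0.55 when doublets were kept, and at -0.44 with a stricter cell filter. With doublets kept or the stricter filter, cells were clustered and named anew. The stromal class then rose from 766 and 959 cells to 1786 and 1624 with doublets and to 1577 and 1398 with the filter. Unnamed cells fell from 1175 and 875 to 87 and 126 and to 673 and 25. The part of this change in the ratios was not tested. In cluster 0 alone the PTGER2 ratio was -1.19, where 9.03% of genes were called lower. Pericyte-like PTGER2 lay on the same side at -1.11 [-1.83, -0.42], from 84 UMIs, under the minimum for a call.

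In trabecular meshwork-like cells as a whole PTGER2 was higher in the glaucoma library, with a log2 ratio of 0.89 [0.44, 1.36]. Most clusters within the class did not lie on that side. PTGER2 was lower in the glaucoma library in clusters 3, 9 and 16, with an interval below 0 in clusters 9 and 16, and higher in cluster 12, with an interval that included no change. The interval of cluster 16, [-8.33, -0.03], rested on 1 and 9 UMIs. Cluster 17 gave 1 UMI in all and shows no direction. Cluster 9, the one rich in PTGER2, accounted for 38.3% of the class among glaucoma cells and 4.11% among normal cells, and cluster 12, which held little, made up 7.60% and 48.5%. With the same cluster weights in both libraries the log2 ratio was -1.05 [-1.60, -0.50]. Cluster 9 of the normal library, which enters this value, was only 29 cells with 17 PTGER2 UMIs. The class value for PTGER2 therefore changed sign with the weighting of clusters.

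PTGER4, which encodes the Gs-coupled EP4 receptor, was highest in immune cells. It overlaps the locus LOC144341268 in the T2T-MMU8v2.0 annotation, and the counting rule for shared reads is not given in the sources used here. Macrophage-like cells held 92.5 CPM [81.3, 105] and 211 CPM [179, 248], and T or NK cell-like cells held 73.4 CPM [51.1, 102] and 145 CPM [98.7, 206]. These 2 classes did not differ beyond counting error in either library. Next came pericyte-like cells at 19.1 CPM in the glaucoma library and trabecular meshwork-like cells at 45.9 CPM in the normal library. Stromal fibroblast-like cells held 7.62 and 12.5 CPM and muscle-like cells 4.11 and 5.98 CPM.

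Trabecular meshwork-like cells held PTGER4 at 9.72 CPM [8.00, 11.7] in the glaucoma library, from 111 UMIs, and at 45.9 CPM [40.4, 51.8] in the normal library, from 257 UMIs. The log2 ratio was -2.24 [-2.57, -1.91]. PTGER4 was the only 1 of the 7 receptors called lower in this class, and none was called higher. Over all 8240 genes measured there, 5.55% were called lower and 5.06% higher, and only 3 of the receptors reached 100 UMIs. The other 2, PTGFR and PTGER2, lay between the 2-fold marks. PTGER4 stayed lower in all 11 alternatives, with log2 ratios from -2.39 to -1.80.

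The same side was seen, with an interval below 0, in 4 of the 5 meshwork-like clusters. Cluster 3 held 10.5 and 55.8 CPM, a log2 ratio of -2.40, and 5.55% of genes were called lower there. Cluster 12 held 19.7 and 46.6 CPM, a log2 ratio of -1.24, where 7.08% of genes were called lower. PTGER4 was called lower in both. Cluster 9 held 6.52 and 36.8 CPM and cluster 16 held 6.16 and 41.5 CPM, both from fewer than 100 UMIs. In cluster 17 the normal library gave 2 UMIs and the glaucoma library none, too few to show a direction. The unnamed cluster 2 also had PTGER4 lower, at 10.9 and 41.4 CPM, a log2 ratio of -1.93, and was called so against 4.75% of genes.

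A PTGER4 UMI was found in 5.16% of glaucoma and 22.0% of normal meshwork-like cells. Depth differed between these groups, and with cells thinned to 1000 UMIs, which kept 1827 and 694 of them, the shares were 1.04% and 4.76%. Non-myelinating Schwann-like cells had a PTGER4 UMI in 0 of 874 glaucoma cells and in 0.348% of normal cells. Their median depths of 965 and 1312 UMIs were below the 5558.5 and 7860 UMIs of meshwork-like cells. Markers of macrophages were at a summed 22.0 and 22.3 CPM in meshwork-like cells, with 9 of 11 markers detected in each library and CSF1R and MRC1 at 0 in the glaucoma library and C1QB and TYROBP at 0 in the normal library. T or NK markers summed to 5.52 and 1.25 CPM. When cells with any such UMI were left out, 1630 and 659 meshwork-like cells remained, PTGER4 gave 88 and 240 UMIs, and the log2 ratio was -2.39 [-2.76, -2.03]. The median share of mitochondrial UMIs also differed, at 3.71% and 1.60%, and its part in the result was not tested.

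In macrophage-like cells PTGER4 was called lower in the glaucoma library as well, with a log2 ratio of -1.19 [-1.49, -0.89], where 5.6% of genes were called lower and 3.36% higher. A single normal cell held 14.6% of the PTGER4 UMIs of that class, and without the richest cell of each library the log2 ratio was -1.01. With cells thinned to 1000 UMIs it was -0.29 [-1.05, 0.53], no longer called and with an interval that leaves out the unthinned value, and the cause of this shift was not tested. T or NK cell-like cells were on the same side at -0.98 [-1.72, -0.24], from 66 UMIs. Pericyte-like cells lay on the other side at 0.96 [-0.37, 2.40], with an interval that included no change. Among muscle-like cells, cluster 8 held 5.16 and 20.7 CPM and cluster 4 held 4.26 and 0.782 CPM, each from 31 UMIs or fewer.

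**Figure D3:**
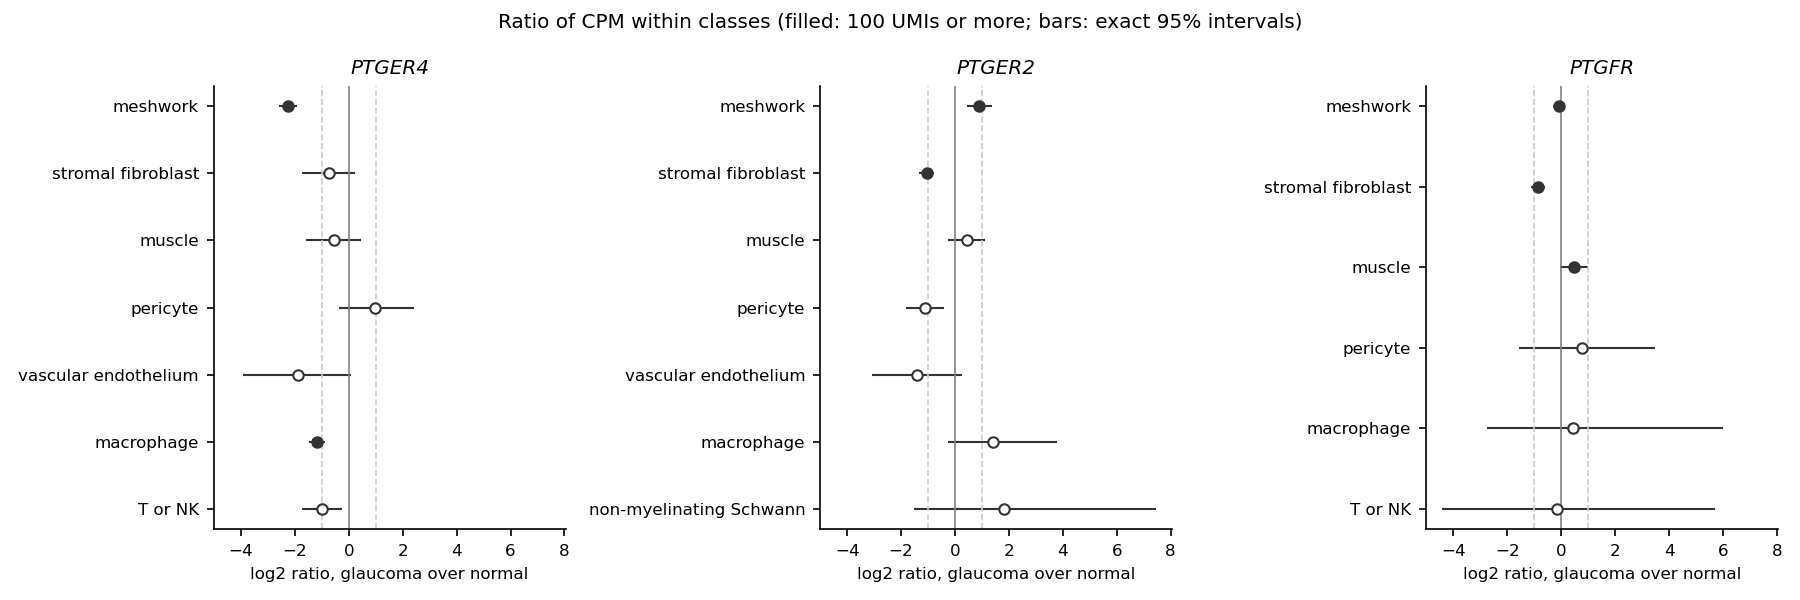
Log2 ratio of CPM, glaucoma over normal library, for PTGER4, PTGER2 and PTGFR in each class with a UMI in both libraries. Points are ratios, filled where both libraries together gave 100 UMIs or more, bars are exact 95% intervals, and dashed lines mark 2-fold. PTGER4 lay below the lower mark in meshwork-like and macrophage-like cells, PTGER2 lay on opposite sides in meshwork-like and stromal cells, and meshwork-like PTGFR was at -0.10.

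PTGER1 and PTGER3, for EP1 and EP3, were near the floor. PTGER1 gave 9 UMIs in glaucoma pericyte-like cells, 11.5 CPM [5.24, 21.8], and 1 UMI in normal ones, 1.23 CPM [0.0311, 6.85], and the other 8 compared classes held at most 2.47 CPM. Its UMIs are uncertain, since the counting rule for reads in overlapping annotation is not known. Among the compared classes PTGER3 was highest in macrophage-like cells at 1.88 and 4.20 CPM, from 5 and 3 UMIs. This lead was within counting error in both libraries. Of the 27 glaucoma UMIs of PTGER3, 13 were in the unnamed cluster 10, a level of 6.19 CPM. The normal library had none there, at a floor of 16.1 CPM. The log2 ratio of PTGER1 in pericyte-like cells was 3.22 [0.37, 8.67] from 10 UMIs, under the minimum for a call.

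PTGIR, the Gs-coupled receptor through which prostacyclin relaxes vessels, was highest in pericyte-like cells, the mural cells of small vessels, at 30.6 CPM [19.6, 45.5] and 16.0 CPM [8.51, 27.3]. Stromal fibroblast-like cells followed at 16.9 and 12.1 CPM. The step between them passed counting error in the glaucoma library and did not in the normal library. Meshwork-like cells held 3.24 and 4.64 CPM and vascular endothelium-like cells 1.07 CPM and no UMI. In the unnamed cluster 2 PTGIR was at 18.7 and 6.67 CPM, a log2 ratio of 1.49 [0.60, 2.38] from 47 UMIs, under the minimum for a call.

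TBXA2R, the receptor through which thromboxane constricts vessels and activates platelets, was a gene of vascular endothelium-like cells. It was at 25.2 CPM [18.5, 33.5] and 44.3 CPM [29.2, 64.4] there, and the step to the next class passed counting error in both libraries. All of these UMIs came from cluster 6, at 27.0 and 50.8 CPM, and none from the other vascular cluster, cluster 19. Cluster 19 was only 59 and 56 cells with a median of 1372 UMIs, too few to show an absence. The log2 ratio of TBXA2R in the class was -0.81 [-1.53, -0.07] from 74 UMIs. Muscle-like cells held 3.47 and 2.89 CPM, mostly in cluster 8 at 10.3 and 8.77 CPM.

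Cells with UMIs of more than 1 receptor were uncommon. In all, 213 glaucoma and 247 normal cells held 2 of the 7 genes, and 19 and 32 held 3 or more. In stromal fibroblast-like cells PTGER2 and PTGFR occurred together in 15 of 766 glaucoma cells and 68 of 959 normal cells. In meshwork-like cells PTGER4 and PTGFR occurred together in 41 and 62 cells. The counts of such cells move with depth and with the level of each gene.

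The genes whose levels followed each receptor most closely over classes were found by Pearson correlation of log2(CPM + 10) over 18 points, the 9 classes in each of 2 libraries, which share libraries and depth. They are a description among 8907 genes. For PTGFR they were BOC, a co-receptor for hedgehog ligands (r = 0.96), and MRC2, a collagen uptake receptor (r = 0.96). For PTGER2 they were CARMIL1, a regulator of actin capping (r = 0.93), ABI3BP, a matrix protein (r = 0.92), and MEST (r = 0.91). For PTGER4 they were APOBR, a lipoprotein receptor of macrophages (r = 0.94), IGFLR1 (r = 0.93) and TPT1 (r = 0.93). For PTGIR they were P2RY14, a receptor for UDP-glucose (r = 0.83), DPYSL4 (r = 0.83) and THY1, a surface protein of mural cells and fibroblasts (r = 0.83).

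The enzymes that make the ligands were placed in other classes than some of the receptors. PTGDS, the lipocalin-type prostaglandin D synthase, reached 15653 and 23652 CPM in meshwork-like cells and 25262 and 11834 CPM in stromal fibroblast-like cells. The receptors for prostaglandin D2 were scarce there: PTGDR2 was highest in pericyte-like cells at 45.8 and 55.3 CPM and gave 2 UMIs and none in meshwork-like cells and none and 31 in stromal cells, and PTGDR was highest in T or NK cell-like cells at 12.6 and 23.4 CPM, from 6 and 5 UMIs. PTGDR neighbours PTGER2 in the T2T-MMU8v2.0 annotation and had its second-highest level in the class where PTGER2 was highest, stromal fibroblast-like cells, at 7.07 and 12.5 CPM. PTGES, an inducible prostaglandin E synthase, was highest in meshwork-like cells at 102 and 96.4 CPM. PTGS2, the inducible cyclooxygenase, was highest in vascular endothelium-like cells at 83.6 and 208 CPM, followed by macrophage-like cells at 67.3 and 106 CPM. TBXAS1, the thromboxane synthase, was highest in macrophage-like cells at 19.9 and 14.0 CPM, whereas the thromboxane receptor was highest in vascular cells. PTGIS, the prostacyclin synthase, reached no more than 2.74 CPM in any class, and PTGS1, the constitutive cyclooxygenase, no more than 1.40 CPM.

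**Figure D4:**
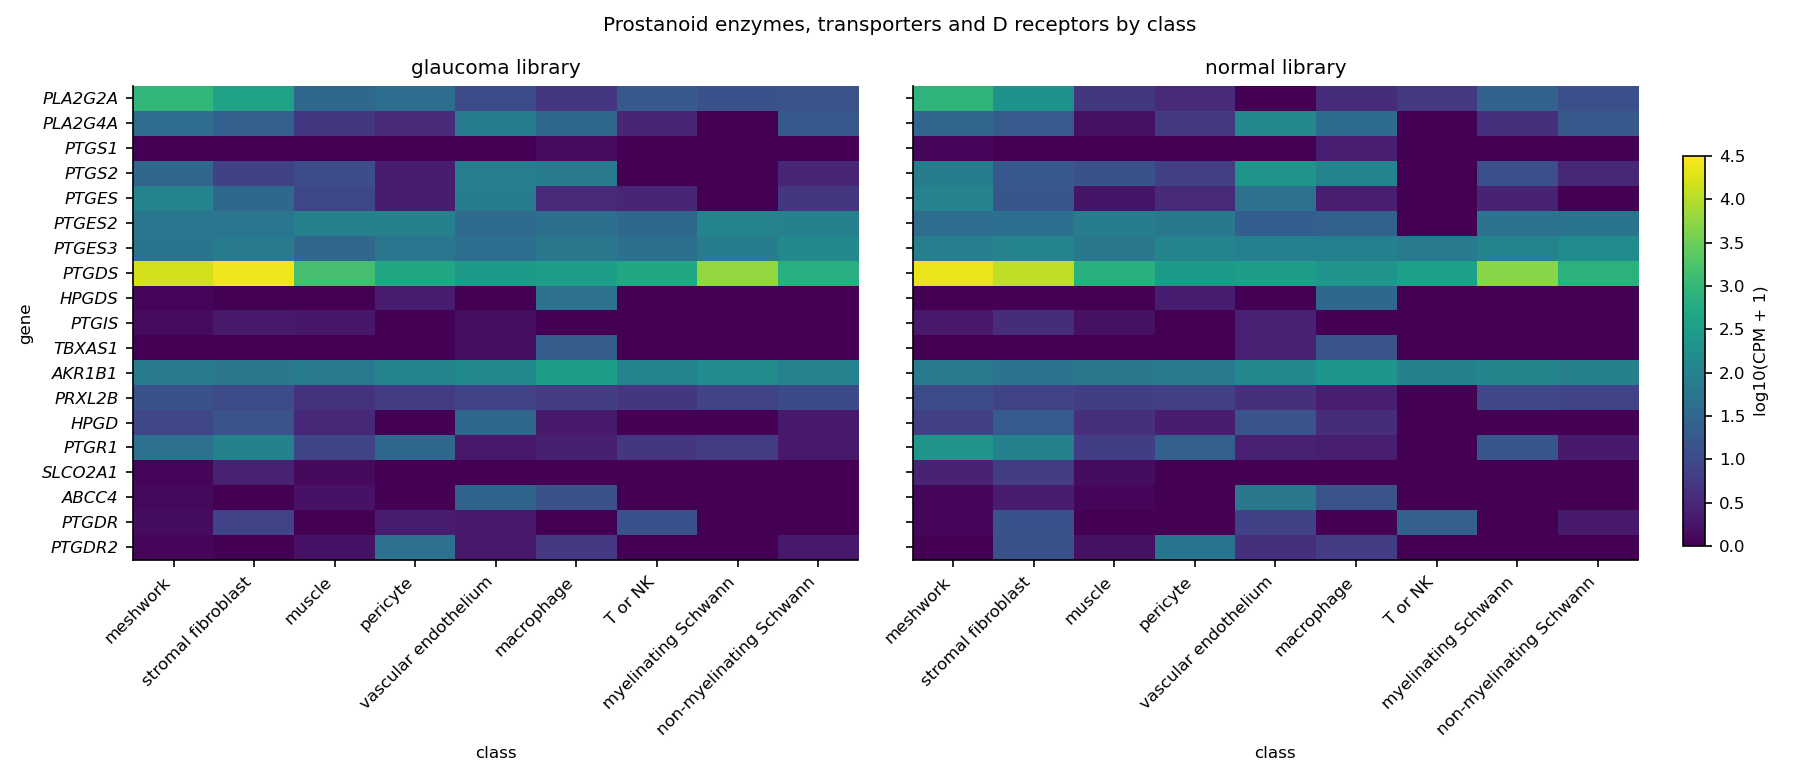
Levels of enzymes, transporters and prostaglandin D2 receptors in the 9 compared classes, as log10(CPM + 1), with the glaucoma library on the left and the normal library on the right. PTGDS was highest in meshwork-like and stromal cells, TBXAS1 and HPGDS in macrophage-like cells, and PTGDR2 in pericyte-like cells.

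In meshwork-like cells 9 of the 13 named synthesis genes were measured. None was called higher and 1 was called lower, PTGS2, at 29.1 and 76.7 CPM with a log2 ratio of -1.40 [-1.61, -1.19]. The median of the list was 0.08, beside -0.03 over all genes. Of 5 measured genes of transport and breakdown, 1 was called lower. This was PTGR1, a prostaglandin reductase, at 46.5 and 223 CPM with a log2 ratio of -2.26 [-2.41, -2.11]. HPGD, the dehydrogenase that begins prostaglandin breakdown, was at 8.23 and 6.07 CPM with an interval that included no change. In stromal fibroblast-like cells PTGDS and PLA2G2A, a secreted phospholipase that frees fatty acids, were called higher, with log2 ratios of 1.09 and 1.04, where 2.15% of all genes were called higher. In vascular endothelium-like cells PTGS2 was called lower, with a log2 ratio of -1.32, where 1.72% of genes were called lower. In muscle-like cells PLA2G2A and PTGDS were called higher, with log2 ratios of 2.80 and 1.03, and PTGES3, a prostaglandin E synthase that is also a chaperone partner, lower, at -1.11, where 3.3% of genes were called higher and 3.83% lower. Meshwork markers moved with PLA2G2A and PTGDS in muscle-like cells: they summed to 4110 and 2002 CPM, with 13 and 11 of 13 detected and PPP1R1B and RSPO4 at 0 in the normal library, and CHI3L1 was at 244 and 11.6 CPM. Their part in these ratios was not tested.

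Downstream of the receptors, 21 of 29 genes of G proteins and first effectors were measured in meshwork-like cells. Of these, 2 were called lower and none higher: PLCB1, a phospholipase that Gq activates, at 43.3 and 127 CPM, and ROCK2, a kinase that promotes actomyosin contraction, at 28.7 and 61.4 CPM. Over all genes of the class 5.55% were called lower and 5.06% higher. GNAS, the Gs alpha subunit through which EP2 and EP4 act, was at 1996 and 1632 CPM, and GNA11, of the Gq family, at 82.3 and 95.5 CPM, both between the 2-fold marks. GNAQ was listed at 0 in all 9 classes of both libraries. The cause was not tested, so these values do not show that the gene is silent. None of 5 measured genes of receptor desensitisation was called.

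Of 8 measured cyclic AMP responsive genes in meshwork-like cells, 3 were called lower and none higher, with a median log2 ratio of -0.88, beside 5.55% called lower, 5.06% called higher and a median of -0.03 over all genes. They were the nuclear receptors NR4A3, at 16.8 and 152 CPM, and NR4A1, at 145 and 380 CPM, and the coactivator PPARGC1A, at 12.4 and 26.4 CPM. CREM, a cyclic AMP-induced transcription factor, was at 51.3 and 50.9 CPM. The list of immediate early and dissociation stress genes, which tissue digestion is known to induce, moved with these genes: of 12 measured, 5 were called lower and 1 higher, with a median of -0.90, beside the same values over all genes. Its median was below 0 in all 9 classes, from -1.21 to -0.25. In macrophage-like and T or NK cell-like cells, where PTGER4 was also low in the glaucoma library, it was -0.25 and -0.65. In pericyte-like cells it was -0.85, while PTGER4 lay on the other side at 0.96 [-0.37, 2.40] from 23 UMIs. The part of tissue handling in the PTGER4 and PTGS2 ratios was not tested.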

How the data were processed

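The deposited matrices hold UMI counts per gene and barcode, 1 per library, made by the authors with Cell Ranger. Versions differ: the submitters' processing notes list Cell Ranger 4.0 and Seurat 3.0, and the matrix header names 6.0.0. The genome build is not given in the sources used here, so no coordinates are given. A symbol came from the files for 15580 features and from a reference table for 873.

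Cells were kept with at least 500 genes and under 20% mitochondrial UMIs, without Scrublet doublets (expected rate 0.8% per 1000 cells). With scanpy 1.11.5, leidenalg 0.10.2, numpy 2.4.6, scipy 1.17.1 and Python 3.11.15, both libraries were clustered together on 2000 variable genes, 30 principal components and 15 neighbours, at Leiden resolution 1. Of 19 marker sets, all but the cycling set could name a cluster, needing 3 markers at least 2-fold above the median cluster in 10% or more of cells. A cluster with vascular endothelium as its best set was named lymphatic-type endothelium if at least 3 lymphatic-type markers passed. Clusters stayed unnamed when their 10 leading genes favoured another class or, by a rule settled after the clusters were seen, when their meshwork and stromal marker counts differed by less than 2. UMIs were then summed by class and library. CPM has exact Poisson intervals, shares of cells exact Clopper-Pearson intervals, and ratios exact conditional binomial ones. Floors are 3 counts. The ratio calculation was tested on simulated data.

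Receptor genes and gene lists were chosen with earlier results of these data known. Text names the 7 receptors, list genes called or highest in a class, and the 3 genes most correlated with each receptor that had 100 UMIs in each library, of which 1 is not reported here. The kit is 3-prime, so CPM was not divided by length.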

Additional observations from a re-analysis of the deposited data

Results flagged for a closer look

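PTGER2 lay on opposite sides in 2 classes: its log2 ratio of glaucoma over normal was 0.89 in trabecular meshwork-like cells and -1.05 in stromal fibroblast-like cells. With 1 library per group the difference between the classes was not tested. The meshwork-like value was -1.05 when the clusters of the class had the same weights in both libraries. Among these, cluster 9 held only 29 normal cells.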

How the results depend on the processing

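In trabecular meshwork-like cells no receptor was called higher, except that 1, PTGER2, was called with doublets kept, with every deposited barcode, and without the barcode holding most UMIs of the gene. The count called lower was 1, PTGER4, and 2 with the same cluster weights in both libraries, which added PTGER2. PTGER2 in meshwork-like cells, not called in the values reported, ranged from -1.05 to 1.20 and was negative with the same cluster weights. Of the ratios recomputed for PTGFR, PTGER2 and PTGER4, 66 moved by less than counting error and 10 by more, and of the levels 79 and 19. PTGER2 in stromal fibroblast-like cells ranged from -1.44 to -0.44 and PTGFR there from -1.39 to -0.68. The stromal class itself held more cells when doublets were kept or the filter was stricter. PTGFR in muscle-like cells ranged from -0.99 to 1.36. One alternative, leaving out cells with a macrophage or T or NK marker UMI, was chosen after seeing the data. The causes were not tested. No paired analysis was possible because each group has 1 library. Genes under 100 UMIs in a class are limited by depth.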
